A study of Homo sapiens with 6 samples.

Results

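The actin cytoskeleton and ERM list comprised 49 genes, chosen by symbol from their known roles, of the 20667 gene symbols quantified in U2932 cells. It held the cytoplasmic actins, the proteins that nucleate, cap, crosslink, sever and recycle actin filaments, the non-muscle myosins and tropomyosins, vimentin as an intermediate filament protein, and the ezrin/radixin/moesin (ERM) proteins. U2932 is an established human lymphoma cell line of the ABC-DLBCL type, the activated form of diffuse large B-cell lymphoma, whose cells resemble plasmablasts. The cells were infected with lentiviruses carrying pLKO.1 vectors, with a puromycin resistance cassette and tGFP, that expressed shRNA. The hairpin targeted ROCK2 in the ROCK2 KD group and was a scrambled control in the Scr shRNA group, so that both groups had been transduced with the same vector. RNA-seq was performed on bulk total RNA and gave 3 ROCK2 KD and 3 Scr shRNA libraries, numbered as replicates 1 to 3 in each group. The labels do not say whether the replicates of a group came from separate infections or cultures, and p-values therefore measure only the spread between these libraries.

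Actin monomers assemble into filaments that give the B-cell cortex its shape and force. Branched networks are nucleated by the Arp2/3 complex once WASP or WAVE proteins activate it, straight filaments are elongated by formins and Ena/VASP proteins, and myosin II pulls on filaments that tropomyosins decorate. The kinases ROCK1 and ROCK2 act on this machinery mainly through phosphorylation: they increase the phosphorylation of the myosin light chain, activate LIM kinase, which in turn inhibits cofilin, and are known for their action on the ERM proteins, which link the plasma membrane to cortical actin. The comparison addressed here is whether the transcripts of this machinery differed between ROCK2 KD and Scr shRNA cells; the phosphorylation of its proteins was not measured by these data. Many of its genes are also targets of serum response factor (SRF), whose coactivators, the MRTF proteins, bind actin monomers.

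All values are FPKM as deposited (fragments per kilobase of transcript, scaled to the number of mapped fragments), a level per transcript length. B-cell identity was checked against marker transcripts: the B-cell transcripts MS4A1, CD79A and PAX5 were at 73.6 to 511, 160 to 458 and 10.8 to 41.0 FPKM, and IRF4, the transcription factor that marks ABC-DLBCL, was at 20.1 to 122 FPKM. All 4 T-cell, all 4 myeloid and all 4 fibroblast markers were under 1 FPKM in every library. The summed T-cell markers were at 0.363 to 0.976 FPKM in ROCK2 KD and 0.215 to 0.562 in Scr shRNA, with CD2 at 0 in all libraries. The summed myeloid markers were at 0.278 to 0.554 and 0.340 to 0.628 FPKM, with FCGR3A and S100A8 at 0. The fibroblast markers summed to 0.317 to 1.55 FPKM in ROCK2 KD and 0.946 to 1.78 in Scr shRNA. Of 4 epithelial markers, 3 were under 1 FPKM, CDH1 was at 0, and EPCAM was at 2.59 to 5.00 FPKM. The libraries of replicate 1 stood apart in both groups, with FPKM sums of 217309 in ROCK2 KD and 208289 in Scr shRNA against 438262 to 480612 in the other 4. The absolute sequencing depth cannot be read from FPKM values, but the step sizes of values under 0.05 FPKM gave relative depths of 71.7% to 89.5% for the ROCK2 KD libraries and 73.7% to 100% for the Scr shRNA libraries, relative to the deepest library.

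Because the SRF element, the CArG box, is the sequence best known to connect actin dynamics with the transcription of actin genes, the promoter windows of the list were searched for it. RefSeq windows from 250 bases before to 50 bases after each annotated start (GRCh38.p14) were found for 46 of the 49 members, in 78 windows. ACTB, WASF2 and ARPC1B had no match. A CArG box, searched on both strands, lay in 5 of the 78 member windows (6.41%) and in 454 of all 35116 windows (1.29%). The 5 windows belonged to the actin gene ACTG1, the crosslinkers ACTN1 and FLNA, the class I myosin MYO1E and the tropomyosin TPM4. They are shown because they are the member promoters in which the element was found, each as 60 bases on the strand of its gene, 5′ to 3′, with the 10 bases of the box in capitals.
ACTG1: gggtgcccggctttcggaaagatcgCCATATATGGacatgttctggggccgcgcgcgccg
ACTN1: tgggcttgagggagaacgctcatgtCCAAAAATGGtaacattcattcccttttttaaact
FLNA: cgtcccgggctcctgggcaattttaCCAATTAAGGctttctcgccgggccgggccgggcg
MYO1E: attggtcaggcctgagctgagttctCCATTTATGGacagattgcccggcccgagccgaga
TPM4: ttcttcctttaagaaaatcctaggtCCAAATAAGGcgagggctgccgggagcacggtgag
The stretches lie at chr17:81512859-81512918 (ACTG1, minus strand), chr14:68977703-68977762 (ACTN1, minus strand), chrX:154374694-154374753 (FLNA, minus strand), chr15:59372868-59372927 (MYO1E, minus strand) and chr19:16067340-16067399 (TPM4, plus strand) of GRCh38.p14. The box began 31 bases before the annotated start in MYO1E, 94 bases before it in ACTG1 and FLNA, 171 in ACTN1 and 173 in TPM4. The E-box CACGTG, the preferred element of MYC, was searched in the same way, and by their letters a match of it cannot overlap a CArG box. It lay in 7 member windows (8.97%), those of ACTG1, CFL2, CORO1C, DIAPH1, DIAPH2, EVL and MSN, and in 7.26% of all windows. These matches describe the letters of the windows and do not show binding.

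The members spanned the whole range of transcript levels in U2932 cells. In Scr shRNA cells 15 of the 49 members had a mean above 100 FPKM, 23 lay between 10 and 100, 7 between 1 and 10, and 4 under 1. Of the 20667 symbols, 3 members were among the 100 highest and 17 among the 1000 highest in all 3 Scr shRNA libraries. The highest was ACTB, which encodes β-actin (chromosome 7, 5566040 to 5603533, minus strand, GRCh37), at 2018 ± 1206 FPKM (SD, n = 3). Its values were 625, 2676 and 2752 FPKM in Scr shRNA replicates 1 to 3 and 661, 2904 and 2532 in ROCK2 KD replicates 1 to 3. ACTG1, which encodes γ-actin (chromosome 17, 79476439 to 79490873, minus strand), followed at 1158 ± 603 FPKM, with 466, 1569 and 1438 FPKM in Scr shRNA and 499, 1657 and 1382 in ROCK2 KD. Within each group the SD reflected the low values of replicate 1, and ACTB was the highest member in 5 of 6 libraries.

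Proteins that hold or deliver actin monomers followed the actins. TMSB4X, thymosin β4, which sequesters monomers (chromosome X, 12993229 to 12995346, plus strand), was at 1072 ± 561 FPKM in Scr shRNA. It lay above ACTG1 in Scr shRNA replicates 1 and 3 and below it in replicate 2, so their order did not hold across libraries. LCP1, L-plastin, the filament-bundling protein of leukocytes (chromosome 13, 46700055 to 46786006, minus strand), was at 730 ± 444 FPKM. PFN1, profilin, which feeds monomers to growing filaments, was at 614 ± 351 FPKM and TMSB10, thymosin β10 (chromosome 2, 85132780 to 85133795, plus strand), at 481 ± 207. The subunits of the Arp2/3 complex were not at one level: ARPC2 was at 365 ± 226 FPKM, ARPC3 at 199, ACTR2 at 148, ARPC1B at 117, ARPC5 at 82.2 and ACTR3 at 34.5. ACTR3, one of the 2 actin-related subunits, was the lowest of these 6 in all 3 Scr shRNA libraries.

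Among the coronins and the Arp2/3 activators, members known from blood cells were well represented. CORO1A, the coronin of leukocytes, was at 154 FPKM in Scr shRNA against 22.3 for CORO1B and 20.4 for CORO1C. HCLS1, the haematopoietic cortactin homologue, was at 126 FPKM and WAS, the WASP protein lost in Wiskott-Aldrich syndrome, at 30.1. Of the other members, the capping subunits CAPZA1 (117 FPKM) and CAPZB (85.3), the tropomyosin TPM3 (100.3), the monomer-recycling protein CAP1 (98.7), the crosslinkers ACTN4 (59.9) and FLNA (40.1), destrin (DSTN, 57.1), MYH9 (46.0), MYO1E (40.8) and the formin DIAPH1 (39.7) had intermediate levels, in FPKM. WIPF1, which binds WASP, was at 31.2 FPKM, the WAVE protein WASF2 at 27.2, VASP at 25.1, TPM4 at 21.0, MYO9B at 13.6, MYH10 at 13.4, MYO1C at 11.2 and gelsolin (GSN) at 10.5. The lowest members that could still be tested were MYO1G (9.68 FPKM), the cofilin phosphatases SSH2 (5.77) and SSH1 (3.30), the Ena/VASP protein EVL (4.80), the formin DIAPH2 (3.38), TPM1 (3.06) and CFL2, muscle cofilin (1.59).

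A set of 4 members was near the lower end of detection and was not tested. VIM, vimentin, was at 1.02 FPKM in Scr shRNA replicate 1 and 0.482 in ROCK2 KD replicate 1, and at 0.0133 to 0.0271 in the other 4 libraries. ACTN1, the crosslinker whose promoter held a CArG box, was at 0.00751 to 0.417 FPKM. TPM2 was at 0.0978 and 0.168 FPKM in the Scr shRNA and ROCK2 KD libraries of replicate 1 and at 0 in the other 4, and MYO1F, a class I myosin of myeloid cells, did not exceed 0.0332 FPKM. None of these 4 reached 1 FPKM in the 3 libraries that the filter required.

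**Figure D1:**
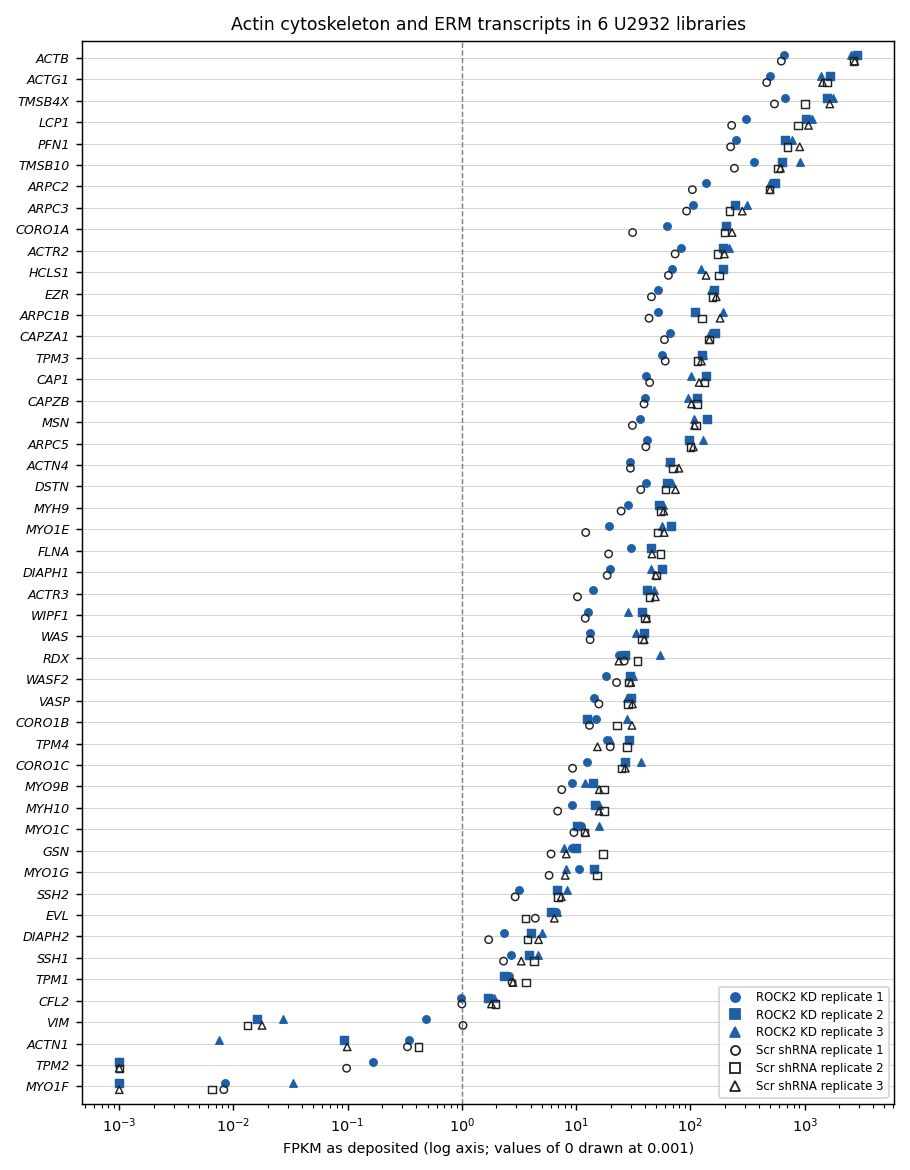
FPKM as deposited (log axis, zeros drawn at 0.001) of the 49 members in the 6 libraries, ordered by their mean in Scr shRNA; filled symbols are ROCK2 KD, open symbols Scr shRNA, shapes the replicate number, and the dashed line is 1 FPKM. For most members the libraries of replicate 1 lie to the left of the other 4 in both groups, and filled and open symbols of 1 shape lie side by side.

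Since FPKM are per length, members of a family can be set against each other within a library, which also cancels the difference in FPKM sums. Shares of each family's summed FPKM were compared over the 3 same-numbered pairs by an exact paired permutation test, two-sided, which cannot give a p below 0.25 with 3 pairs. Among the actins, ACTG1 made up 42.7%, 37.0% and 34.3% in Scr shRNA replicates 1 to 3 and 43.0%, 36.3% and 35.3% in ROCK2 KD (mean difference 0.231 percentage points, SD 0.822, exact p = 0.75). The share differed more between replicate numbers than between ROCK2 KD and Scr shRNA libraries of the same number. MYH9, the heavy chain of non-muscle myosin IIA and thus of the motor that ROCK controls, was 77.6% ± 1.58 (SD, n = 3) of the pair it forms with MYH10 in Scr shRNA and 77.4% ± 1.58 in ROCK2 KD. TPM3 was 79.5% ± 7.38 of the tropomyosins in Scr shRNA and 79.4% ± 6.16 in ROCK2 KD. TPM4 was 17.9% and 18.4%, and TPM1 2.58% and 2.16%. ACTN4 made up 99.4% ± 0.490 of the actinins in Scr shRNA and 99.6% ± 0.623 in ROCK2 KD.

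The ERM proteins and the coronins also varied between libraries. EZR, ezrin, was the most abundant ERM transcript in every library, at 44.3%, 51.5% and 56.0% of the ERM sum in Scr shRNA and 46.6%, 49.0% and 48.5% in ROCK2 KD (mean difference -2.59 percentage points, SD 4.96, exact p = 0.5). MSN, moesin, was at 34.5% ± 3.76 in Scr shRNA and 36.4% ± 5.72 in ROCK2 KD. RDX, radixin, ranged from 7.87% to 25.6% in Scr shRNA and from 8.15% to 21.4% in ROCK2 KD; the difference was -4.24, -3.21 and 9.37 percentage points in pairs 1 to 3 and so had no common direction. For CORO1A the differences were 11.5, 3.12 and -4.61 percentage points. The share of CORO1B was lower in ROCK2 KD in all 3 pairs, at 16.5%, 5.12% and 10.57% against 24.4%, 9.24% and 10.63%, with exact p = 0.25, the smallest possible. In pair 1 the FPKM of CORO1B itself was not lower (14.8 in ROCK2 KD and 13.1 in Scr shRNA), whereas that of CORO1A was 62.4 and 31.2. The share of TPM1 was also lower in all 3 pairs, with the same exact p.

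**Figure D2:**
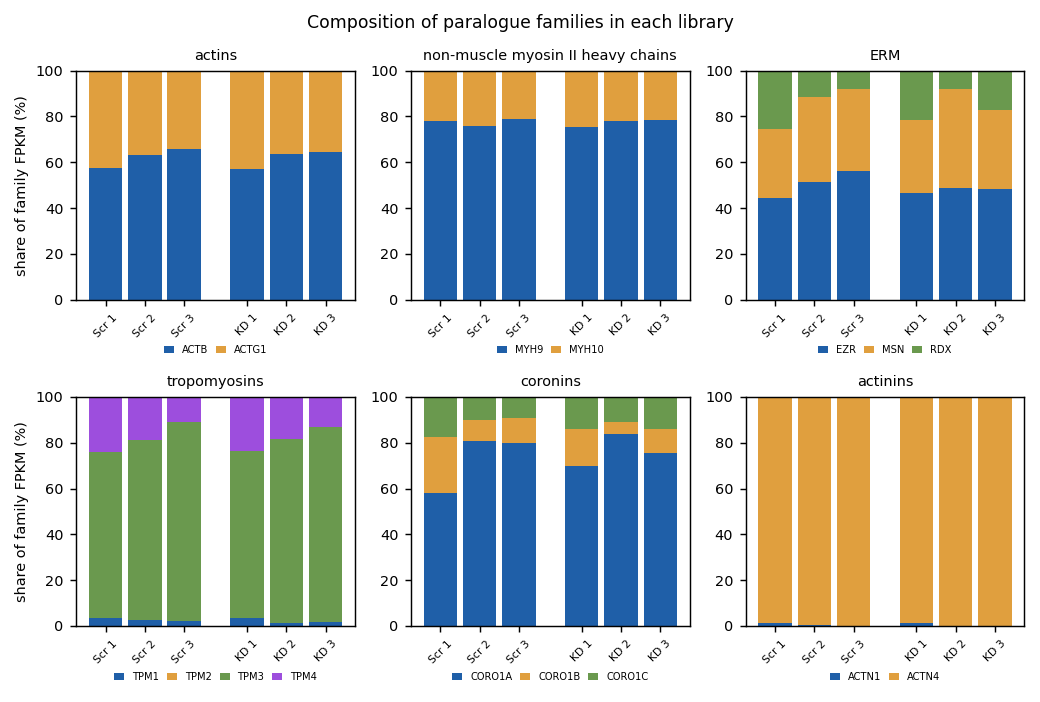
Share of each paralogue in the summed FPKM of its family (%), 1 bar per library (Scr, Scr shRNA; KD, ROCK2 KD; numbers are replicates). ACTG1 lay within 34.3% to 43.0% of the actins and MYH9 within 75.6% to 78.7% of its pair, while the RDX segment varied from 7.87% to 25.6% of the ERM sum.

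ROCK2 itself was examined first as a check of the knockdown. Its FPKM were 2.75, 5.35 and 1.26 in ROCK2 KD replicates 1 to 3 and 4.32, 7.21 and 5.78 in Scr shRNA, with a log2 fold change of -0.81 (SE 0.22) and with the ROCK2 KD library lower in all 3 pairs. Without replicate 3 the log2 fold change was -0.44. The adjusted p was 0.811 by limma, so the targeted transcript did not pass the test over all genes either. ROCK1 had a log2 fold change of 0.0044 (SE 0.10). Fold changes here and below are from limma on log2(scaled FPKM + 1) with the replicate number as a block, with p-values adjusted over the 10526 genes at 1 FPKM or more in at least 3 libraries. They understate changes of transcripts near or under 1 FPKM. In bulk RNA, fewer cells of a type and less RNA per cell cannot be told apart.

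None of the 45 tested members had an adjusted p under 0.05 for ROCK2 KD against Scr shRNA, as was true of all genes tested (0% of 10526). At an unadjusted p under 0.05 there were 5 members, all with higher levels in ROCK2 KD, where 3.09% of all genes were called higher and 2.30% lower. These were the monomer-binding thymosins TMSB10 and TMSB4X, the filament elongator EVL, the coronin CORO1C and the bundling protein LCP1. Without the block no member had an unadjusted p under 0.05 (0.285% of all genes). Without replicate 1 none of these 5 did, while 2 others, MYO9B and CORO1B, had one and were lower in ROCK2 KD. That fit gave such a p for 8.02% of all genes. Without replicate 2, and likewise without the filter on low values, TMSB10 and CORO1C kept an unadjusted p under 0.05 and TMSB4X, EVL and LCP1 did not, and without replicate 3 CORO1C did not. The log2 fold change was above 0 for 32 of the 45 members and for 48.7% of all genes, with a median of 0.033 against -0.0043 over all genes. All 3 pairs were higher in ROCK2 KD for 8 members (12.7% of all genes) and lower for 2 members (12.3% of all genes). These counts depended on replicate 1: 36 members were higher in pair 1, 25 in pair 2 and 19 in pair 3. Over all 10526 genes the numbers were 5472, 5123 and 5252. Without replicate 1 the log2 fold change was above 0 for 21 members (49.6% of all genes), with a median of -0.0070. With ComBat in place of the block 2.82% of all genes had an adjusted p under 0.05, and none of the members did. That fit held no term for the replicate number, so its p-values can be too small. An unadjusted p under 0.05 was found for 20.1% of all genes in it, against 5.39% with the block.

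**Figure D3:**
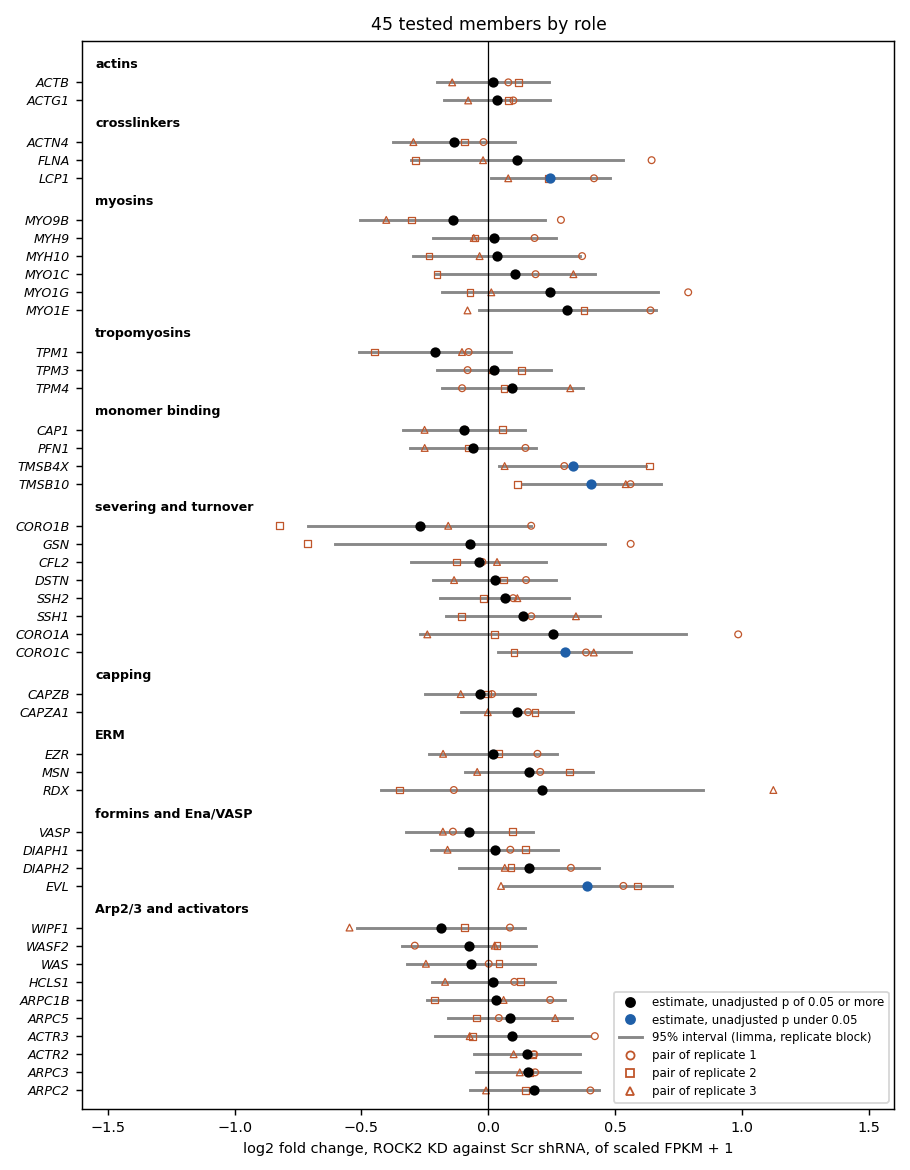
Log2 fold change of ROCK2 KD against Scr shRNA for the 45 tested members by role (points, limma estimate with its 95% interval; blue, unadjusted p under 0.05; open symbols, difference in each same-numbered pair). Of the 45 estimates, 32 lie to the right of 0, and the circles of pair 1 are to the right of 0 for 36 members.

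TMSB10 and EVL had the highest log2 fold changes among the members in this fit, but not in every alternative: without replicate 1, for example, RDX (0.39) and TMSB4X (0.35) lay above both. Its scaled FPKM, brought to a common scale between libraries, were 526, 512 and 761 in ROCK2 KD replicates 1 to 3 and 356, 473 and 523 in Scr shRNA. The ROCK2 KD library was the higher in each pair, but the 512 of ROCK2 KD replicate 2 was below the 523 of Scr shRNA replicate 3, so the groups overlapped. The log2 fold change was 0.41 (SE 0.12), with an unadjusted p of 0.010 and an adjusted p of 0.811 by limma. TMSB4X, its paralogue on chromosome X, had scaled FPKM of 983, 1270 and 1477 in ROCK2 KD and 799, 818 and 1412 in Scr shRNA. This gave a log2 fold change of 0.33 (SE 0.12, limma adjusted p = 0.897), with pair differences of 0.30, 0.63 and 0.064. The groups overlapped and pair 2 carried most of the difference. The other monomer-binding members, PFN1 and CAP1, had log2 fold changes of -0.062 and -0.096, so the role group split into 2 higher and 2 lower members.

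EVL and CORO1C, which act on filament elongation and turnover, were also among the members at an unadjusted p under 0.05. EVL (chromosome 14, 100437786 to 100610573, plus strand) had scaled FPKM of 9.75, 4.87 and 5.70 in ROCK2 KD and 6.43, 2.90 and 5.47 in Scr shRNA (log2 fold change 0.39, SE 0.14, limma adjusted p = 0.888). Its paralogue VASP was at -0.075, and the formins DIAPH1 and DIAPH2 were at 0.024 and 0.16, on the log2 scale. CORO1C (chromosome 12, 109038885 to 109125302, minus strand) had scaled FPKM of 18.1, 21.7 and 30.9 in ROCK2 KD and 13.6, 20.2 and 22.9 in Scr shRNA (log2 fold change 0.30, SE 0.11, limma adjusted p = 0.897). For both genes each ROCK2 KD library was above its Scr shRNA partner while the groups overlapped. CORO1A, by contrast, had scaled FPKM of 91.5, 164 and 167 in ROCK2 KD and 45.8, 162 and 197 in Scr shRNA, and its pair differences of 0.98, 0.024 and -0.24 covered both directions. CORO1B had the lowest log2 fold change of the tested members in this fit, -0.27 (SE 0.18; 0.0051 without replicate 2), with scaled FPKM of 21.7, 10.0 and 23.4 in ROCK2 KD and 19.2, 18.5 and 26.2 in Scr shRNA. The 3 coronins therefore had log2 fold changes of 0.30, 0.26 and -0.27, with limma adjusted p from 0.897 to 0.970. In the rest of the severing and turnover group, SSH1 and SSH2 were at 0.14 and 0.064, DSTN at 0.024, CFL2 at -0.039 and GSN at -0.074, on the log2 scale.

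Among the crosslinkers LCP1 had scaled FPKM of 450, 838 and 970 in ROCK2 KD and 337, 711 and 919 in Scr shRNA. Its log2 fold change of 0.24 (SE 0.099, limma adjusted p = 0.909) had a 95% interval of 0.0094 to 0.48, and its pair differences were 0.42, 0.24 and 0.078. Its unadjusted p was no longer under 0.05 with median of ratios scaling, without the mean-variance trend or without the filter on low values. FLNA was at 0.11, with pair differences of 0.64, -0.29 and -0.021, and ACTN4 at -0.14, lower in all 3 pairs. The capping subunits CAPZA1 and CAPZB, which act as a heterodimer, were at 0.11 and -0.033.

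**Figure D4:**
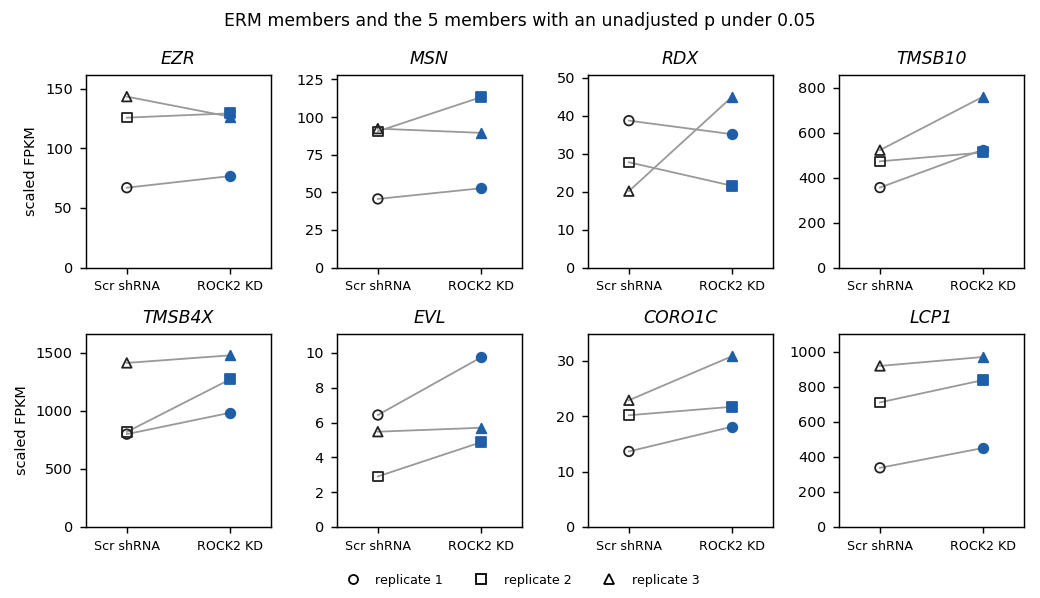
Scaled FPKM in Scr shRNA and ROCK2 KD libraries for the ERM members and the 5 members with an unadjusted p under 0.05; lines join libraries of the same replicate number and each vertical axis starts at 0. All 3 lines end higher in ROCK2 KD for TMSB10, TMSB4X, EVL, CORO1C and LCP1, whereas those of RDX cross, with replicate 3 going from 20.1 to 44.9.

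The ERM transcripts were examined in each library because these proteins are classic readouts of ROCK activity at the protein level. EZR (chromosome 6, 159186773 to 159240400, minus strand) had scaled FPKM of 76.6, 129 and 126 in ROCK2 KD and 66.9, 126 and 143 in Scr shRNA. Its log2 fold change was 0.018 (SE 0.11), with a 95% interval of -0.23 to 0.27. MSN (chromosome X, 64808257 to 64961793, plus strand) had scaled FPKM of 52.7, 113 and 89.5 in ROCK2 KD and 45.6, 90.5 and 92.3 in Scr shRNA, and its log2 fold change was 0.16 (SE 0.11; 95% interval -0.093 to 0.41; 0.080 without replicate 2 and 0.27 without replicate 3). For both transcripts the groups overlapped almost entirely and replicate 1 was lowest. RDX (chromosome 11, 109735021 to 110167437, minus strand) had scaled FPKM of 35.1, 21.5 and 44.9 in ROCK2 KD and 38.7, 27.7 and 20.1 in Scr shRNA. Its log2 fold change of 0.21 had the widest standard error of all tested members, 0.27, and without replicate 3 it was -0.24. The limma adjusted p were 0.996 for EZR, 0.960 for MSN and 0.982 for RDX.

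The actins and the myosin II heavy chains had estimates close to 0. ACTB had scaled FPKM of 969, 2349 and 2119 in ROCK2 KD and 917, 2163 and 2339 in Scr shRNA, for a log2 fold change of 0.018 (SE 0.093; 95% interval -0.20 to 0.24). ACTG1 had scaled FPKM of 731, 1340 and 1157 in ROCK2 KD and 683, 1269 and 1223 in Scr shRNA, for a log2 fold change of 0.033 (SE 0.088; 95% interval -0.18 to 0.24). Both were higher in pairs 1 and 2 and lower in pair 3. MYH9 was at 41.3, 42.6 and 47.8 scaled FPKM in ROCK2 KD and 36.3, 44.2 and 49.8 in Scr shRNA (log2 fold change 0.024, SE 0.10). MYH10 was at 13.4, 11.9 and 13.2 scaled FPKM in ROCK2 KD and 10.1, 14.1 and 13.5 in Scr shRNA (log2 fold change 0.033, SE 0.14). For both heavy chains pair 1 was higher and pairs 2 and 3 lower in ROCK2 KD.

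The unconventional myosins, which tether membranes and vesicles to actin, were more spread. MYO1E had scaled FPKM of 28.3, 54.3 and 47.3 in ROCK2 KD and 17.8, 41.6 and 50.2 in Scr shRNA, with a log2 fold change of 0.31 (SE 0.15, limma adjusted p = 0.942). MYO1G was at 0.24 and MYO1C at 0.11, with pair differences in both directions. MYO9B, a class IX myosin, had scaled FPKM of 13.6, 11.3 and 10.0 in ROCK2 KD and 10.96, 14.1 and 13.5 in Scr shRNA, and its log2 fold change was -0.14 (SE 0.15). Pair 1 of MYO9B was higher and pairs 2 and 3 were lower in ROCK2 KD. Of the 6 tested myosins, 5 had a log2 fold change above 0, against 48.7% of all genes, but 6, 1 and 2 were higher in pairs 1 to 3, and none had an unadjusted p under 0.05.

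Of the tropomyosins, TPM1 was lower in ROCK2 KD in all 3 pairs, with scaled FPKM of 3.77, 1.89 and 2.14 in ROCK2 KD and 4.03, 2.94 and 2.38 in Scr shRNA. Its log2 fold change was -0.21 (SE 0.13, limma adjusted p = 0.957), and the groups overlapped. TPM3, the main tropomyosin of these cells, had scaled FPKM of 83.4, 103 and 107 in ROCK2 KD and 88.4, 93.6 and 106 in Scr shRNA (log2 fold change 0.021, SE 0.094). TPM4 had 27.0, 23.6 and 16.6 in ROCK2 KD and 29.1, 22.5 and 13.1 in Scr shRNA (log2 fold change 0.094, SE 0.12). The members with a CArG box in a promoter window that could be tested had log2 fold changes of 0.033 (ACTG1), 0.11 (FLNA), 0.31 (MYO1E) and 0.094 (TPM4).

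In the Arp2/3 group 7 of 10 members had a log2 fold change above 0, against 48.7% of all genes. The median was 0.058, against -0.0043 over all genes, and no member of the group had an unadjusted p under 0.05. The complex subunits were at 0.18 for ARPC2, 0.16 for ARPC3, 0.15 for ACTR2, 0.094 for ACTR3, 0.086 for ARPC5 and 0.030 for ARPC1B. ARPC3 and ACTR2 were higher in all 3 pairs. The proteins that switch the complex on or bind those that do were at 0.020 for HCLS1, -0.068 for WAS, -0.077 for WASF2 and -0.19 for WIPF1. WIPF1, the third lowest member, had scaled FPKM of 18.8, 30.4 and 23.8 in ROCK2 KD and 17.6, 32.5 and 35.2 in Scr shRNA, and its pair differences were 0.085, -0.093 and -0.55. Of the 10 members of the group 9, 6 and 5 were higher in ROCK2 KD in pairs 1 to 3, and the limma adjusted p ranged from 0.957 to 0.996.

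The precision of the fit sets what could be seen. For 31 of the 45 members (68.9%) the 95% interval of the log2 fold change lay within 0.5 on either side of 0, against 79.9% of all genes. The median size of the log2 fold change, regardless of sign, was 0.11 for the members and 0.087 for all genes. These intervals are not adjusted for the number of genes, so differences whose interval excludes 0 could also be missed at an adjusted p under 0.05. In simulated data 0% of genes changed by 0.5 on the log2 scale were recovered at that threshold. Some members carry an added uncertainty from shared sequence, since 20 of the 49 have named pseudogene copies. Among them are ACTG1 with 21, ACTB with 12, PFN1 with 11, TPM3 with 9 and TMSB4X with 6, whose reads could have been divided between copies. The exons of 23 members overlap an exon on the opposite strand, and the sources used here do not state that strand was used in quantification.

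Differences between replicate numbers were larger than those between ROCK2 KD and Scr shRNA for many members. The split of replicate 1 from replicates 2 and 3 was chosen after the values were seen and is given as a description. On the scaled log2 scale the median difference of replicates 2 and 3 minus replicate 1 was 0.40 over the 45 members, of which 33 (73.3%) were above 0, against -0.0059 over all genes, of which 49.6% were above 0. CORO1A differed by 1.39, ARPC2 by 1.26, ACTB by 1.25, LCP1 by 1.13, MYO1E by 1.07, ACTR3 by 1.06, MSN by 0.96, EZR by 0.86 and ACTG1 by 0.82, each higher in replicates 2 and 3. EVL was lower by this measure (-0.67), as were TPM4 (-0.58), TPM1 (-0.56), MYO1C (-0.51) and RDX (-0.43). The members thus made up 1.83% of the FPKM sum in ROCK2 KD replicate 1 and 1.63% in Scr shRNA replicate 1, but 2.38% to 2.64% in the other 4 libraries. ACTB and ACTG1 together made up 0.534% and 0.524% of the sum in the libraries of replicate 1 and 0.821% to 1.04% in the others. The cause of this difference was not tested.

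**Figure D5:**
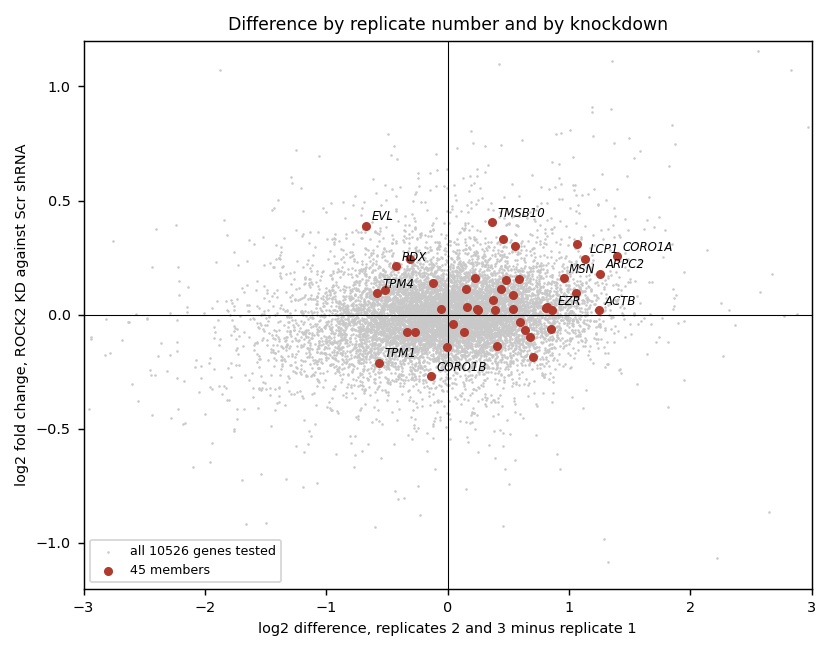
Log2 difference of replicates 2 and 3 minus replicate 1 (horizontal) against the log2 fold change of ROCK2 KD over Scr shRNA (vertical) for the 10526 genes tested (grey, 23 genes outside the axes not drawn) and the 45 tested members (red). The members spread along the horizontal axis to 1.39 for CORO1A, but stay between -0.27 and 0.41 on the vertical axis.

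Genes of the same pathways that are not members were examined in 7 lists of 109 genes, of which 78 were tested. None had an adjusted p under 0.05. The log2 fold change was above 0 for 54 of the 78, against 48.7% of all genes, and the median was 0.062, against -0.0043 over all genes. As for the members, the number higher in ROCK2 KD differed between pairs, at 61, 46 and 41 of 78 in pairs 1 to 3. An unadjusted p under 0.05 was found for 3 higher and 3 lower genes, where 3.09% of all genes were called higher and 2.30% lower. In the remaining Arp2/3 and WAVE genes 7 of 14 were above 0, with CYFIP2, a subunit of the WAVE complex, highest at 0.21. WASH1, which activates Arp2/3 on endosomes and belongs to a family of near-identical copies, was lowest at -0.39 (SE 0.11, limma adjusted p = 0.811), with 9.03, 7.05 and 4.48 FPKM in ROCK2 KD and 12.9, 8.996 and 6.05 in Scr shRNA. Of the remaining formins and monomer-binding genes 10 of 11 were above 0, from TWF2, twinfilin, at -0.072 to the formin FMNL1 at 0.31. In pairs 1 to 3 the number higher in ROCK2 KD was 10, 9 and 4 of these 11, and none had an unadjusted p under 0.05.

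The capping, bundling and cortex genes held 3 of the 6. Of the 16 genes 13 were above 0 (14, 9 and 9 in pairs 1 to 3), against 48.7% of all genes. CAPG, which caps filament ends, was at 3.33, 1.43 and 1.90 FPKM in ROCK2 KD and 2.37, 0.821 and 0.646 in Scr shRNA (log2 fold change 0.50, SE 0.13, limma adjusted p = 0.811). MARCKS, a membrane-bound filament crosslinker, was at 6.20, 5.29 and 15.95 FPKM in ROCK2 KD and 5.19, 4.01 and 6.63 in Scr shRNA (log2 fold change 0.55, SE 0.18, limma adjusted p = 0.888). Its pair differences were 0.23, 0.32 and 1.11, so pair 3 carried most of the difference. ZYX, zyxin, a protein of stressed filaments and focal adhesions, was at 8.78, 10.1 and 2.55 FPKM in ROCK2 KD and 10.5, 12.8 and 4.02 in Scr shRNA (log2 fold change -0.35, SE 0.11, limma adjusted p = 0.886). Each of these 3 differed in the same direction in all 3 pairs. Of the remaining myosins and light chains 7 of 10 were above 0 (9, 5 and 5 in pairs 1 to 3). They ran from MYO19 at -0.20 to the regulatory light chain MYL12A at 0.19, and none had an unadjusted p under 0.05.

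Among the kinases and partners of the ERM proteins 6 of 12 genes were above 0. ICAM3, an adhesion molecule of leukocytes that binds ERM proteins, was at 12.8, 14.8 and 20.4 FPKM in ROCK2 KD and 14.5, 20.7 and 26.4 in Scr shRNA (log2 fold change -0.33, SE 0.11, limma adjusted p = 0.888). CD44, the hyaluronan receptor and another ERM partner, had the highest estimate, 0.81 (SE 0.41), but its FPKM of 1.84, 4.84 and 19.5 in ROCK2 KD and 1.24, 5.74 and 3.15 in Scr shRNA were set apart by replicate 3, and pair 2 was lower. In the MRTF and SRF list 8 of 17 genes were tested and 6 were above 0 (5, 7 and 4 in pairs 1 to 3), against 48.7% of all genes. EGR1, an immediate early gene and SRF target, was at 0.753, 6.82 and 7.40 FPKM in ROCK2 KD and 0.566, 2.03 and 2.62 in Scr shRNA (log2 fold change 0.89, SE 0.22, limma adjusted p = 0.811). MKL1, which encodes an MRTF, was at -0.11 and was the lowest of the list. The SRF targets CYR61 and CTGF did not exceed 0.0319 and 0.0123 FPKM, and CNN1 was listed at 0 in all 6 libraries.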

How the data were processed

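Per the study's methods, 50-base paired reads of Nextera libraries were aligned to hg19 with STAR 2.4.2, and the authors deposited Cufflinks 2.2.1 FPKM per gene symbol for each library; the gene annotation is not given in the sources used here, and no counts were analysed. Libraries were brought to a common scale with an unweighted trimmed mean (log ratios trimmed by 0.3, mean levels by 0.05), log2-transformed with a pseudocount of 1, and fitted with limma 3.58.1 (R 4.3.3; mean-variance trend, replicate number as block, Benjamini-Hochberg adjustment). Genes needed 1 FPKM in 3 of 6 libraries. The block follows from same-numbered libraries deviating together (correlations across genes 0.848, 0.784 and 0.737, against -0.64 to 0.0491 for other numbers). The deviations were taken from each group's own mean and cancel within it. High correlations for the same number therefore tend to make those for other numbers negative. In simulated data 63% of genes changed by 1 on the log2 scale and 0% of those changed by 0.5 were recovered (200 of 10526 genes changed, 5 draws).

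The members and lists were chosen with earlier results of these data known. Values in every library are given for the ERM genes, the actins, MYH9, MYH10, the tropomyosins, CORO1A, members with an unadjusted p under 0.05 and the 4 highest and 4 lowest members; in the pathway lists, genes with such a p or otherwise the extremes are named; some markers and 1 pathway list, which is counted in the totals, are not reported here. Gene positions come from a GENCODE annotation of GRCh37. Alternatives covered the block, ComBat, scaling, pseudocount, filter, trend and each replicate left out. Figures were drawn with matplotlib 3.10.9.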

Additional observations from a re-analysis of the deposited data

How the results depend on the processing

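The replicate number was kept as a block because same-numbered libraries pair. Without the block 0 members had an unadjusted p under 0.05 (0.285% of all genes), against 5 with it (5.39% of all genes). With ComBat followed by limma without the block there were 12 (20.1% of all genes). In that fit 297 of all genes had an adjusted p under 0.05 (0 in the reported fit). It held no term for the replicate number, so its p-values can be too small. Without the filter on low values 2 members had an unadjusted p under 0.05, as did 4.09% of all genes. Leaving out replicate 1, 2 or 3 gave 2, 2 and 7 such members, against 8.02%, 5.31% and 3.99% of all genes. The 2 members without replicate 1 were MYO9B and CORO1B, both lower in ROCK2 KD. In these 3 fits 0 to 4 genes had an adjusted p under 0.05. The log2 fold change was above 0 for 21 to 33 members (49.6% to 50.3% of all genes), and the 21 was without replicate 1. LCP1 lost its unadjusted p under 0.05 with median of ratios scaling and without the mean-variance trend, LCP1, TMSB4X and EVL lost theirs without the filter and without replicate 2, and CORO1C lost its own without replicate 3. EVL lay above TMSB10 in log2 fold change with a pseudocount of 0.1, quantile normalization, equal library sums and without replicate 1 or 3. Other scalings gave 31 or 32 members above 0. Of 20 members followed through 13 alternatives, 10 had the same sign throughout and 10 changed it when 1 replicate was left out. With 1 replicate number left out, the log2 fold change ranged from -0.064 to 0.12 for EZR, -0.24 to 0.49 for RDX, -0.032 to 0.11 for ACTB, -0.050 to 0.071 for MYH9, -0.13 to 0.17 for MYH10, -0.034 to 0.078 for TPM3, -0.015 to 0.20 for TPM4, -0.10 to 0.51 for CORO1A, -0.49 to 0.0051 for CORO1B and -0.32 to 0.0025 for WIPF1. Without a change of sign it ranged from -1.004 to -0.44 for ROCK2, 0.080 to 0.27 for MSN, -0.35 to -0.0031 for MYO9B, 0.15 to 0.51 for MYO1E, -0.29 to -0.088 for TPM1, 0.18 to 0.47 for TMSB4X, 0.33 to 0.55 for TMSB10, 0.29 to 0.56 for EVL, 0.16 to 0.33 for LCP1, 0.25 to 0.40 for CORO1C and 0.0046 to 0.095 for ACTG1. The limits are the 3 libraries in each group, FPKM without counts, and a depth per library that the FPKM give only in relative terms.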
